A study of Mus musculus with 22 samples.

Results

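The nuclear genes of the mitochondrial respiratory chain and ATP synthase were followed in whole testes of WT and MLX KO mice. Members were all rows of the count table whose symbol begins with Nduf, Uqcr, Atp5 or Cox4 to Cox8, together with *Sdha*, *Sdhb*, *Sdhc*, *Sdhd*, *Cycs* and *Cyct*. This gave 94 of 17931 gene symbols: 36 of complex I, 4 of complex II, 8 of complex III, 2 cytochromes c, 19 of complex IV, 15 of ATP synthase and 10 assembly or accessory factors that share these name stems. The rule used no measured value.

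RNA-seq was done on 3 WT and 3 MLX KO libraries, each from whole testes of untreated males aged 7 months. MLX KO males carry a constitutive deletion of the exons that encode the dimerization and DNA-binding region of MLX, a basic helix-loop-helix partner of the MAX network. The allele was made in 129S4 embryonic stem cells, deleted with Meox2-Cre mice, whose background is not given in the sources used here, and the Cre allele was then crossed out. The males are described as age-matched littermates in 3 pairs, the WT males were proven breeders, and lines from independent stem cell clones existed, but which line gave these libraries is not given in the sources used here. As the deletion is present in every cell type of the animal, and as the tissue was not sorted, fewer cells of a type and less RNA per cell cannot be told apart in these libraries.

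The respiratory chain passes electrons from NADH (complex I) and succinate (complex II) through complex III and the soluble carrier cytochrome c to complex IV, and ATP synthase uses the resulting proton gradient. Most tissues express a single gene for each small subunit of complex IV and for cytochrome c, whereas male germ cells also express testis paralogs: *Cyct* beside *Cycs*, *Cox6b2* beside *Cox6b1*, *Cox7b2* beside *Cox7b* and *Cox8c* beside *Cox8a*. The paralogs come on as germ cells enter meiosis and continue in spermatids, while Sertoli and Leydig cells use the somatic forms.

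*Mlx* itself had 128, 96 and 98 counts in the WT libraries and 94, 109 and 102 counts in the MLX KO libraries. The difference was not called (log2 fold change, LFC, -0.18, SE 0.14, adjusted p = 0.326, edgeR). The count covers the whole gene, including an exon the deletion left in place, so it does not check the genotype labels. Libraries held 16674678 to 19742726 counts, and the first principal component, with 76.1% of the variance, separated the genotypes. WT1 and KO1 lay apart from the other libraries of their genotype on the second component (10.2%), and results that rest on them are given with and without that pair. The labelled tissue was borne out by its markers: 10 of 10 elongating spermatid and 10 of 10 Sertoli cell markers were detected in every library.

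Of the 94 members 91 had enough counts for testing. In edgeR's quasi-likelihood fit over all 14640 genes tested, 20 members were higher and 17 were lower in MLX KO testes at an adjusted p under 0.05, and 54 were not called. The background over all genes tested was 24.8% higher and 20.6% lower (45.4% in either direction), against 22.0% and 18.7% of the members, so the members as a whole were called about as often as all genes. With the littermate pair as a block 19 members were higher and 12 lower, against a background of 25.5% and 20.5%, and with DESeq2 13 were higher and 17 lower, against 18.4% and 19.6%. When libraries were scaled to their size without TMM, 37 were higher and 1 lower, against 36.5% and 8.66%, and the median LFC of all genes was then higher by 0.139. The median LFC was -0.01 over the members tested and 0.03 over all genes tested. The 3 members left out of the test were *Cox4i2*, *Cox6a2* and *Cox8b*, each with at most 5 counts in any library.

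Differences were small next to their number, from an LFC of -0.31 (*Ndufaf3*) to 1.14 (*Cox7a1*). Members called higher had a median level in WT testes of 14.3 CPM (read counts brought to a common total with TMM-adjusted library sizes) per kb of exon, against 78.3 for members called lower and 35.8 for those not called. Summed over all members, the libraries held 6933, 7109 and 6941 CPM in WT and 6947, 6809 and 6747 CPM in MLX KO testes, which overlapped (log2 difference of means -0.03, two-sided exact permutation test p = 0.3). This rests on the scaling. Without the TMM factors the sums were 6617 to 6705 CPM in WT and 7087 to 7233 CPM in MLX KO testes, higher and without overlap.

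**Figure D1:**
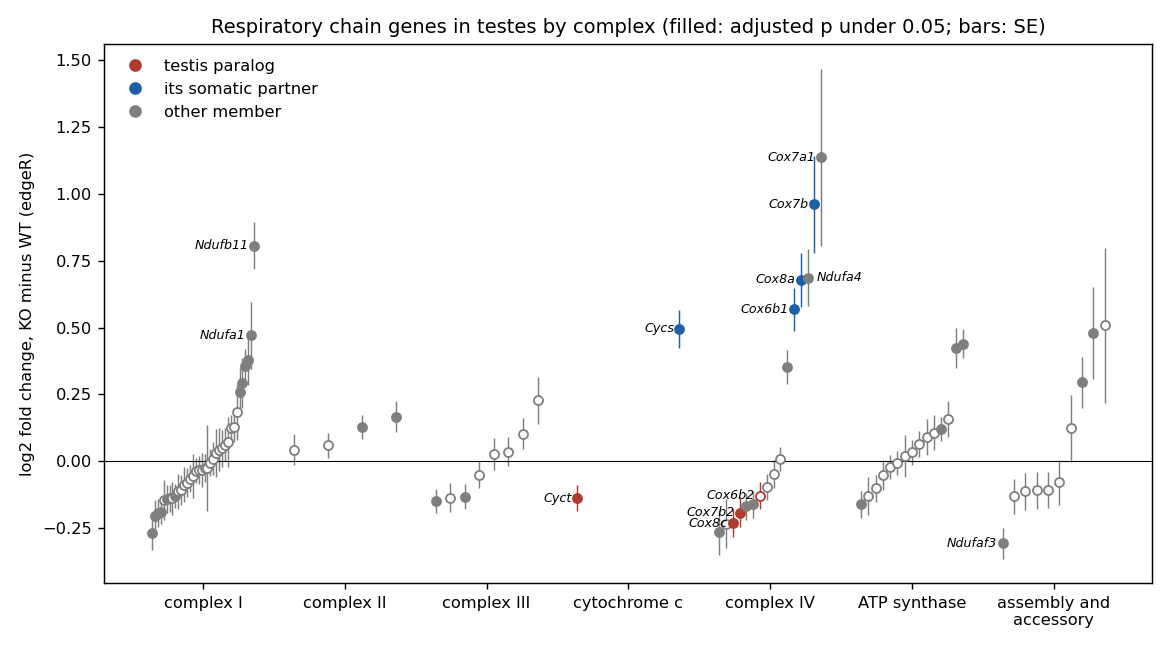
Fitted log2 fold change of MLX KO against WT for the 91 members tested (y axis) by complex (x axis), in order of fold change within a complex; bars are SE, filled points had an adjusted p under 0.05 (edgeR), red marks testis paralogs and blue their somatic partners. The 4 somatic partners lie between 0.50 and 0.96 and the 4 testis paralogs between -0.23 and -0.13, of which *Cyct* and *Cox6b2* come to 0.00155 and 0.01 without the TMM factors.

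The cytochromes c are the mobile electron carriers between complexes III and IV. *Cyct*, the testis form, had 58.7, 61.4 and 59.4 CPM in WT and 55.2, 54.4 and 53.5 CPM in MLX KO testes. Each MLX KO library lay below each WT library, by a small margin (LFC -0.14, SE 0.05, adjusted p = 0.0425, edgeR), and the call was lost with the littermate pair as a block (adjusted p = 0.0675) and without any library other than KO1 (adjusted p from 0.0699 to 0.140, edgeR). *Cycs*, the somatic form, had 46.4, 47.6 and 46.4 CPM in WT and 59.1, 71.9 and 67.0 CPM in MLX KO testes. It was higher in all 3 MLX KO libraries, least so in KO1 (LFC 0.50, SE 0.07, adjusted p = 0.000281, edgeR). For *Cycs*, 38.5% of the 50-base stretches of its transcript occur elsewhere in the genome, so reads could have been lost or gained at the counting step, which the sources used here do not describe.

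*Cox6b2* and *Cox6b1* encode the subunit of complex IV that faces the intermembrane space at the contact with cytochrome c. *Cox6b2* had 160, 156 and 154 CPM in WT and 152, 138 and 141 CPM in MLX KO testes. Its groups did not overlap, but it missed the threshold (LFC -0.13, SE 0.05, adjusted p = 0.0592, edgeR) with all libraries. It passed with DESeq2 (adjusted p = 0.0389), with DESeq2's size factors in edgeR (0.0348), without KO1 (LFC -0.17, adjusted p = 0.00587, edgeR) and without pair 1 (0.0139, edgeR), and its sign turned without the TMM factors. *Cox6b1* had 16.5, 17.6 and 16.1 CPM in WT and 23.2, 26.2 and 25.1 CPM in MLX KO testes, without overlap. It rose by an LFC of 0.57 (SE 0.08, adjusted p = 0.000269, edgeR).

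*Cox7b2* and *Cox7b* encode a small transmembrane subunit of the same enzyme. *Cox7b2* fell from 114, 113 and 106 CPM in WT to 103, 93.6 and 95.2 CPM in MLX KO testes (LFC -0.19, SE 0.05, adjusted p = 0.0128, edgeR), a call lost without WT1, WT2, KO2 or KO3 (adjusted p from 0.0521 to 0.0681, edgeR). *Cox7b*, an X-linked gene, had 4.96, 4.32 and 3.55 CPM in WT and 6.60, 10.1 and 8.36 CPM in MLX KO testes. This was the largest increase of a somatic partner (LFC 0.96, SE 0.18, adjusted p = 0.00149, edgeR), and KO1 was again the lowest of the 3 MLX KO libraries.

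*Cox8c* and *Cox8a* encode the smallest nuclear subunit of complex IV. *Cox8c* had 242, 251 and 264 CPM in WT and 223, 209 and 213 CPM in MLX KO testes, the lowest WT library lying above the highest MLX KO library (LFC -0.23, SE 0.05, adjusted p = 0.00381, edgeR). Without the TMM factors the groups still did not overlap, but the LFC was -0.09 and not called (adjusted p = 0.0909, edgeR). Per kb of exon *Cox8c* was the most abundant of all members in WT testes, at 550 ± 25.0 CPM (SD, n = 3), and it remained so in MLX KO testes at 469 ± 16.3 CPM (SD, n = 3). *Cox8a* had 17.3, 16.0 and 17.4 CPM in WT and 22.9, 29.7 and 28.8 CPM in MLX KO testes, without overlap (LFC 0.68, SE 0.10, adjusted p = 0.000401, edgeR). Of its transcript's 50-base stretches, 21.8% occur elsewhere in the genome, against 6.51% for *Cox7b*, 2.11% for *Cox6b1* and 0 for the 4 testis paralogs.

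**Figure D2:**
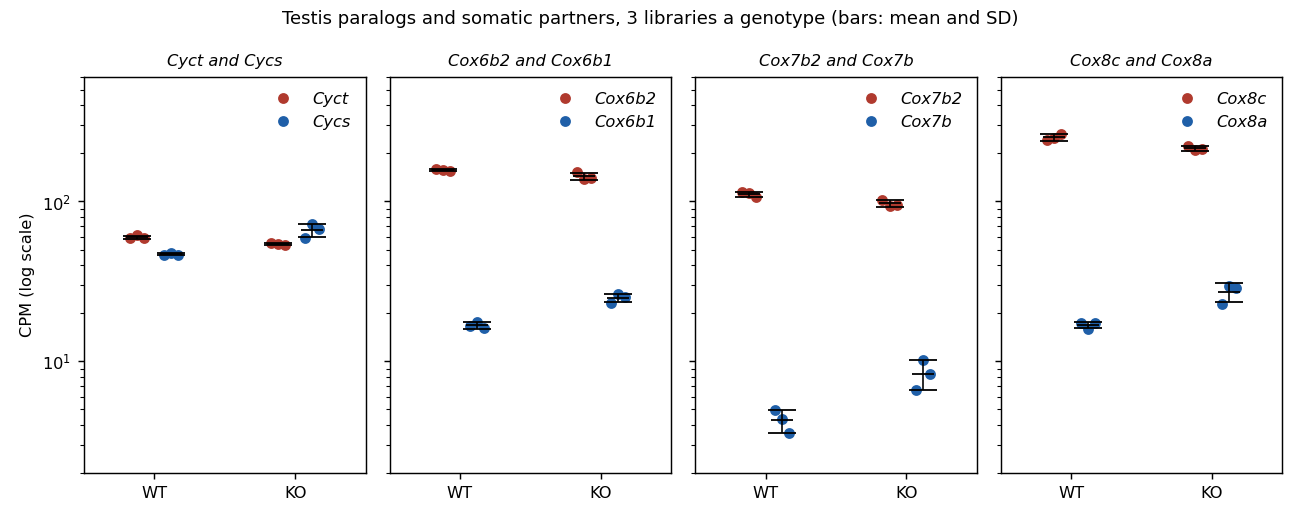
CPM (y axis, log scale) of each testis paralog (red) and its somatic partner (blue) in the 3 WT and 3 MLX KO libraries; points are libraries 1 to 3 from left to right, bars the mean and SD. The somatic partners sit higher in every MLX KO library than in any WT library, and the paralogs sit lower, which without the TMM factors held for *Cox8c* but not for *Cyct*, *Cox6b2* and *Cox7b2*.

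Whether the members of a pair moved differently was tested on the log2 ratio of their CPM within each library, a measure that does not depend on how libraries are scaled. The *Cyct* to *Cycs* ratio was 0.34, 0.37 and 0.36 on the log2 scale in the WT libraries and -0.10, -0.40 and -0.33 in the MLX KO libraries, a difference of -0.63. For *Cox6b2* to *Cox6b1* it went from 3.28, 3.15 and 3.26 to 2.71, 2.39 and 2.49, a difference of -0.70. The *Cox7b2* to *Cox7b* ratio fell from 4.52, 4.71 and 4.90 to 3.96, 3.21 and 3.51, a difference of -1.15, and that of *Cox8c* to *Cox8a* from 3.80, 3.97 and 3.93 to 3.28, 2.81 and 2.88, a difference of -0.90. Each ratio was lower in 3 of 3 pairs, with no overlap between genotypes. Each gave p = 0.1 in the two-sided exact permutation test (0.1 after adjustment over the 4 pairs), which is the smallest p that 3 against 3 libraries allow, so none could pass 0.05. KO1 was the MLX KO library nearest to WT in all 4 ratios. Without pair 1 the differences were -0.73, -0.76, -1.44 and -1.10 in the same order.

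Expressed as shares of a pair's CPM per kb of exon, the paralogs stayed the major form in MLX KO testes. *Cyct* made up 86.9% ± 0.121 of its pair in WT and 81.1% ± 1.67 in MLX KO testes (SD, n = 3 each). The share of *Cox6b2* went from 85.7% ± 0.580 to 78.7% ± 1.87, that of *Cox7b2* from 98.3% ± 0.215 to 96.3% ± 0.908, and that of *Cox8c* from 95.3% ± 0.277 to 91.4% ± 1.32. The shares depend on the length used, most of all for cytochrome c, whose somatic transcript has a long untranslated part: per kb of coding sequence *Cyct* made up 56.1% of its pair in WT and 45.3% in MLX KO testes, which would make *Cycs* the major form there.

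**Figure D3:**
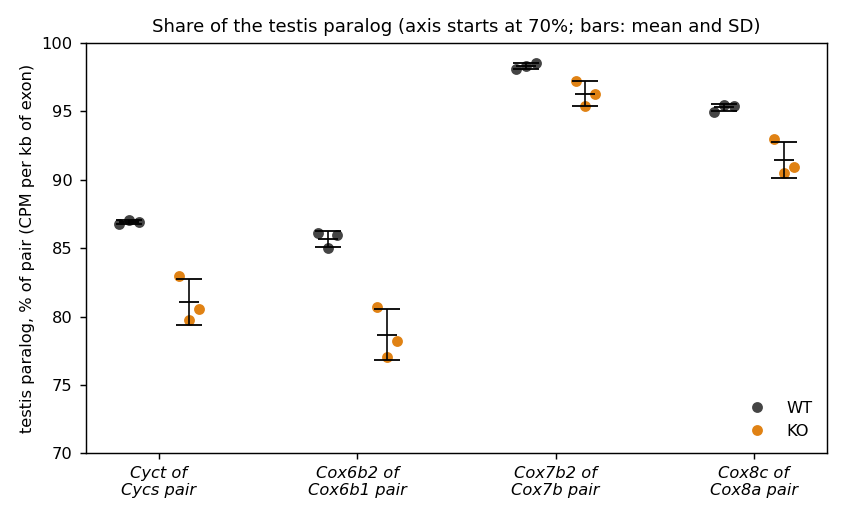
Share of the testis paralog in its pair, in percent of the summed CPM per kb of exon (y axis, which starts at 70%), for WT (grey) and MLX KO (orange) libraries; points are libraries 1 to 3 from left to right, bars the mean and SD. The share is lower in the 3 MLX KO libraries for each pair, and KO1 (the left orange point) is nearest to WT.

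The paralogs are distinct in sequence, so that reads of one would rarely fit the other. Aligned over their coding sequences, *Cyct* and *Cycs* are identical at 76.2% of positions, *Cox7b2* and *Cox7b* at 63.8%, *Cox8c* and *Cox8a* at 51.3% and *Cox6b2* and *Cox6b1* at 50.9%. On the transcript taken for each gene, untranslated parts included, the longest run shared within a pair is 14 bases. That is far below the length of a read of this experiment. In mm10 *Cyct* lies at chr2:76353942-76360453, *Cox6b2* at chr7:4751792-4753094, *Cox7b2* at chr5:71442823-71548205 and *Cox8c* at chr12:102899306-102900534. Their somatic partners lie elsewhere, *Cycs* at chr6:50562563-50566569, *Cox6b1* at chr7:30616971-30626114, *Cox7b* at chrX:106015700-106022450 and *Cox8a* at chr19:7215158-7217616.

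The levels of the paralogs and their partners moved beside those of testis cell type markers. Of markers of the stages in which the paralogs are expressed, 8 of 10 spermatocyte, 7 of 7 round spermatid and 10 of 10 elongating spermatid markers were lower, with median LFCs of -0.16, -0.25 and -0.54. Without the TMM factors the counts were 1 of 10, 3 of 7 and 10 of 10, with medians of -0.03, -0.11 and -0.40. The summed level of the spermatocyte list was 1857 to 1910 CPM in WT and 1624 to 1703 CPM in MLX KO testes, that of the round spermatid list 1426 to 1458 and 1201 to 1275 CPM, and that of the elongating spermatid list 23014 to 23975 and 13660 to 16646 CPM. Markers of cells that use the somatic forms were higher: 10 of 10 for Sertoli cells (median LFC 0.78), 8 of 8 for Leydig cells (1.16) and 9 of 9 for macrophages (1.28), with the same counts under both scalings.

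The summed Sertoli cell list rose from 1334 to 1378 CPM in WT to 2032 to 2463 CPM in MLX KO testes, the Leydig cell list from 865 to 885 CPM to 1859 to 2446 CPM, and the macrophage list from 85.8 to 90.6 CPM to 182 to 188 CPM. Among MLX KO libraries, KO1 had the highest sum of each of the 3 spermatocyte and spermatid lists. It had the lowest sum of the Sertoli and Leydig cell lists, but not of the macrophage list. There KO1 (185 CPM) lay between KO3 (182 CPM) and KO2 (188 CPM). KO1 was also the library nearest to WT in the paralog ratios. No marker of these lists was at 0 in all libraries. Spermatogonial markers were mixed, with 2 of 9 higher and 1 lower, as were the other somatic lists: 2 of 7 endothelial markers were higher, 4 of 6 peritubular myoid markers were higher and 1 lower, and of 4 adipocyte markers tested 1 was higher and 1 lower. Of 2 skeletal muscle markers tested 0 were called, by edgeR at an unadjusted p under 0.05 or by DESeq2. The part of cell composition in the changes of the respiratory chain genes was not tested.

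**Figure D4:**
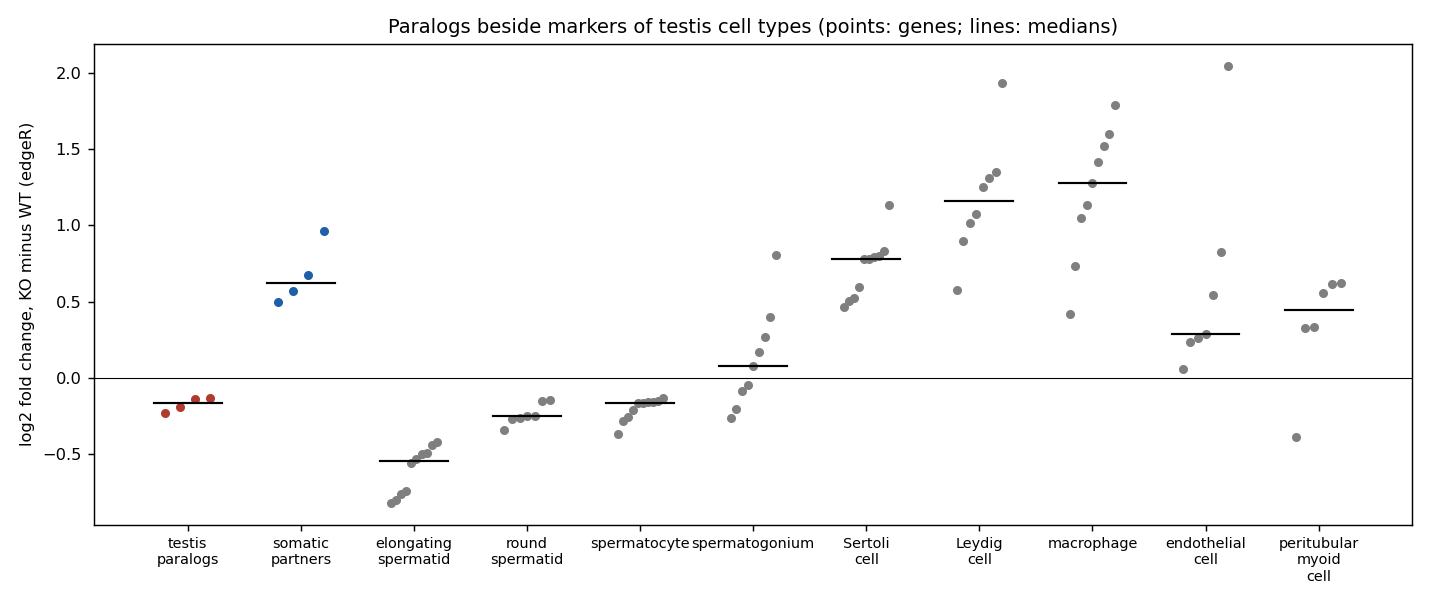
Fitted log2 fold change of MLX KO against WT (y axis; points are genes, lines medians) for the testis paralogs (red), their somatic partners (blue) and marker genes of testis cell types (grey). The paralogs lie close to the spermatocyte and round spermatid markers, and without the TMM factors *Cyct* and *Cox6b2* turn to just above 0. The somatic partners lie in the range of the Sertoli cell markers, and also in the wider ranges of the macrophage and endothelial cell markers.

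Of the 19 members of complex IV, 16 were tested, 6 were higher and 5 lower (37.5% and 31.25%, against 24.8% and 20.6% of all genes tested). Without the 3 paralog pairs described above, 10 of 13 were tested, 3 were higher and 3 lower (30% each). Those that rose were *Cox7a1*, *Ndufa4* and *Cox6a1*. *Cox7a1*, the heart and muscle isoform of subunit 7a, had the largest increase of any member but was rare, at 16, 9 and 14 counts in WT and 24, 43 and 25 counts in MLX KO libraries. KO2 stood well above KO1 and KO3 (LFC 1.14, SE 0.33, adjusted p = 0.0163, edgeR), and the call was lost without KO2 (LFC 0.79, adjusted p = 0.0844, edgeR) or without WT2 (LFC 1.00, adjusted p = 0.0651, edgeR). Its partner *Cox7a2* fell from 144, 149 and 143 CPM to 136, 128 and 124 CPM (LFC -0.17, SE 0.05, adjusted p = 0.0188, edgeR), a call lost without WT2, KO2 or KO3 (adjusted p from 0.0697 to 0.0962, edgeR). The *Cox7a1* to *Cox7a2* ratio was therefore higher by 1.29 on the log2 scale (3 of 3 pairs, two-sided exact permutation test p = 0.1, the smallest possible), and *Cox7a1* made up 0.887% of the pair's CPM per kb of exon in WT and 2.20% in MLX KO testes.

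The other tissue isoforms of complex IV were close to absent. *Cox4i2*, the lung isoform of subunit 4, had 2, 1 and 5 counts in WT and 3, 0 and 2 counts in MLX KO libraries. *Cox6a2*, the muscle isoform of subunit 6a, had 4, 3 and 0 counts in WT and 4, 3 and 3 counts in MLX KO libraries, and *Cox8b*, the muscle isoform of subunit 8, had 0 counts in each WT library and 1, 0 and 1 counts in MLX KO libraries. No fold is given for these. Their partners were abundant: *Cox4i1* had 184 to 195 CPM in WT and 171 to 184 CPM in MLX KO testes and was not called (LFC -0.09, adjusted p = 0.135, edgeR), with its sign turning under library size scaling and a call without KO1 (adjusted p = 0.0386, edgeR), and *Cox6a1* rose from 83.5 to 88.9 CPM to 99.6 to 118 CPM (LFC 0.35, SE 0.06, adjusted p = 0.00124, edgeR).

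*Ndufa4*, named after complex I but assigned to complex IV, and its relative *Ndufa4l2*, known as a hypoxia-induced gene, moved in opposite directions. *Ndufa4* had 11.5, 11.2 and 12.1 CPM in WT and 16.0, 20.5 and 19.5 CPM in MLX KO testes (LFC 0.69, SE 0.11, adjusted p = 0.000446, edgeR). *Ndufa4l2* had 26.0, 28.2 and 28.0 CPM in WT and 25.1, 22.4 and 20.7 CPM in MLX KO testes (LFC -0.27, SE 0.08, adjusted p = 0.0236, edgeR). The fall of *Ndufa4l2* was not called without WT2, WT3, KO2 or KO3 (adjusted p from 0.0677 to 0.106, edgeR). Neither gene's groups overlapped, and the difference between the genes was not tested.

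Complex I takes electrons from NADH. Of its 36 members 6 were higher and 7 lower (16.7% and 19.4%, against 24.8% and 20.6% of all genes tested), with a median LFC of -0.03. The 7 core subunits, which carry the catalytic centres, were split 1 higher (*Ndufs8*, LFC 0.26, adjusted p = 0.0321, edgeR) to 2 lower (*Ndufv1* and *Ndufv2*, -0.13 and -0.14, both lost with the littermate pair as a block), and the 29 supernumerary subunits 5 higher to 5 lower. The call of *Ndufs8* was lost with DESeq2 (adjusted p = 0.113) and without WT1, WT3, KO2 or KO3 (adjusted p from 0.0576 to 0.129, edgeR). Those of *Ndufv1* and *Ndufv2* were lost without WT1, WT2, KO2 or KO3 (adjusted p from 0.0662 to 0.179, edgeR). *Ndufv1* was also not called without WT3 (adjusted p = 0.101, edgeR). Without the TMM factors their LFCs were 0.00843 and -0.0038, and neither was called. *Ndufb11*, an X-linked supernumerary subunit, had 11.1, 12.2 and 12.2 CPM in WT and 19.4, 21.0 and 21.5 CPM in MLX KO testes, well separated (LFC 0.81, SE 0.09, adjusted p = 5.08e-05, edgeR). *Ndufa13*, also known as Grim19, was the lowest of the complex, with 91.9, 101 and 104 CPM in WT and 86.5, 83.6 and 76.3 CPM in MLX KO testes (LFC -0.27, SE 0.06, adjusted p = 0.00521, edgeR). *Ndufa12* went from 88.1 to 91.2 CPM to 73.7 to 84.6 CPM (LFC -0.20, adjusted p = 0.0136, and 0.0589 without KO2 or 0.0690 without KO3, edgeR), with 54.4% of its 50-base stretches found elsewhere in the genome.

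Complex II, the succinate dehydrogenase shared with the citric acid cycle, had 2 of 4 members higher and 0 lower in edgeR (0 lower at an unadjusted p under 0.05), whereas DESeq2 called 0 in either direction. Of all genes tested, edgeR called 24.8% higher and 20.6% lower. *Sdhc*, a membrane anchor, was highest, with 44.0, 47.2 and 48.2 CPM in WT and 54.3, 51.2 and 51.0 CPM in MLX KO testes (LFC 0.17, adjusted p = 0.0372, edgeR). That call was lost without WT1, WT2, KO1 or KO2 (adjusted p from 0.0548 to 0.157, edgeR) and without pair 1 (LFC 0.10, adjusted p = 0.220, edgeR). *Sdha*, the flavoprotein, was the other (LFC 0.13), and its call was lost with the pair as a block (adjusted p = 0.0787). *Sdhd*, the second anchor, had the lowest value (LFC 0.04, adjusted p = 0.571, edgeR).

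Complex III had 0 members higher in edgeR (1 at an unadjusted p under 0.05, and 0 in DESeq2) and 2 of 8 lower (25%). The shares of all genes tested were 24.8% higher and 20.6% lower. *Uqcrc1*, a core protein, had 316, 320 and 319 CPM in WT and 294, 285 and 282 CPM in MLX KO testes (LFC -0.15, SE 0.04, adjusted p = 0.0181, edgeR, and 0.0538 with the pair as a block), and it was called without KO1 but not without any other library (adjusted p from 0.0511 to 0.0812, edgeR). *Uqcrfs1*, the Rieske iron-sulfur protein, was the other (LFC -0.13, adjusted p = 0.0409, edgeR, and 0.0612 with the block). Without the TMM factors *Uqcrfs1* had an LFC of 0.00633 and was not called, and without any library other than KO1 its adjusted p was 0.0745 to 0.171 (edgeR). *Uqcr11*, a small subunit, had the highest value (LFC 0.23, adjusted p = 0.0548, edgeR, and 0.0453 with the block), and was called without WT3 (adjusted p = 0.0180) or KO1 (adjusted p = 0.0442, edgeR).

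Of the 15 members of ATP synthase 3 were higher and 1 lower (20% and 6.67%, against 24.8% and 20.6% of all genes tested). *Atp5g3* encodes the c subunit of the rotor ring, as do *Atp5g1* and *Atp5g2*. *Atp5g3* rose from 53.3, 53.1 and 55.3 CPM to 69.0, 75.0 and 75.2 CPM (LFC 0.44, SE 0.05, adjusted p = 0.000111, edgeR). *Atp5g2* was also higher (LFC 0.42), although 88.4% of its 50-base stretches occur elsewhere, and *Atp5g1* was not called (LFC 0.11). *Atp5j*, a subunit of the stalk, was the lowest, with 106, 114 and 111 CPM in WT and 102, 97.7 and 96.3 CPM in MLX KO testes (LFC -0.16, adjusted p = 0.0201, edgeR), not called without WT2, WT3, KO2 or KO3 (adjusted p from 0.0606 to 0.0867, edgeR). The alpha subunit, *Atp5a1*, had an LFC of 0.12 (adjusted p = 0.0437, edgeR). That call was lost with the pair as a block (adjusted p = 0.108, edgeR) and with DESeq2 (0.159). It was also lost without any library other than KO1 (adjusted p from 0.0916 to 0.165, edgeR). The beta subunit, *Atp5b*, had an LFC of -0.02 and was not called.

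Among 10 assembly or accessory factors 2 were higher and 1 lower (20% and 10%, against 24.8% and 20.6% of all genes tested). Those higher were the complex I assembly factors *Ndufaf1* (LFC 0.29, adjusted p = 0.0273, edgeR) and *Ndufaf4* (LFC 0.48, adjusted p = 0.0406, edgeR). Both calls were lost without pair 1 (adjusted p = 0.149 and 0.0540, edgeR), with DESeq2 (0.140 and 0.0965), and without WT1 or WT3, besides KO1 or KO2 for *Ndufaf1* and KO3 for *Ndufaf4* (adjusted p up to 0.164, edgeR). *Ndufaf3*, a complex I assembly factor, had 206, 220 and 222 CPM in WT and 188, 169 and 166 CPM in MLX KO testes, the largest decrease of any member (LFC -0.31, SE 0.06, adjusted p = 0.00153, edgeR). *Ndufaf6*, another complex I assembly factor, had the highest value but was not called (LFC 0.51, SE 0.29, adjusted p = 0.176, edgeR).

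Summed within a complex, the CPM of MLX KO testes lay below WT for complex I (1965.9 ± 25.2 and 1897 ± 29.0), complex III (805 ± 7.52 and 759 ± 15.5) and complex IV (1382 ± 17.0 and 1316 ± 23.5; SD, n = 3 each), and above it for complex II (364 ± 7.85 and 392 ± 4.76). The 2 cytochromes c summed to 105, 109 and 106 CPM in WT and to 114, 126 and 120 CPM in MLX KO testes. None of these sums overlapped between genotypes, and each gave the smallest possible p of 0.1 in the exact permutation test (0.133 after adjustment). With TMM the sums of ATP synthase overlapped (p = 0.3, exact permutation test). Without the TMM factors they did not overlap and were higher in MLX KO testes (1816 and 2034 CPM). Without the TMM factors the sums of complexes I, III and IV were instead higher in MLX KO testes (1872 and 1990.2, 766 and 796, 1317 and 1380 CPM), again without overlap, so their direction rests on the scaling, while complex II and cytochrome c were higher under both. The assembly and accessory factors summed to 464 ± 7.84 CPM in WT and 411 ± 24.9 CPM in MLX KO testes (SD, n = 3 each). These sums did not overlap (p = 0.1, exact permutation test), but they did without the TMM factors (442 and 431 CPM). With TMM the log2 differences of all group sums ranged from -0.18 (assembly and accessory factors) to 0.17 (cytochrome c), smaller than the differences of the 4 pair ratios.

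A pattern chosen after the values were seen concerned the X chromosome, which is silenced in male meiosis. The 3 members on it, *Ndufa1*, *Ndufb11* and *Cox7b*, were all higher, whereas 17 of 88 tested members on autosomes were higher and 17 lower. Over all 576 X-linked genes tested 38.7% were higher. *Ndufa1* had 14.1, 12.8 and 11.9 CPM in WT and 14.9, 20.9 and 18.2 CPM in MLX KO testes (LFC 0.47, SE 0.13, adjusted p = 0.0101, edgeR).

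MLX binds E-boxes as a heterodimer, and many respiratory chain genes are known targets of NRF1, so the letters of these motifs were looked up in the promoters (250 bases before to 50 after each annotated start; RefSeq, GRCm38.p6), of which 84 belonged to 78 members. The E-box CACGTG was in 10.7% of the members' promoters and in 7.15% of all 32851 promoters, the core GCGCATGC of the NRF1 motif in 15.5% and 2.71%, and the cAMP response element TGACGTCA, read on either strand like the others, in 5.95% and 1.79%. The NRF1 core was near 13 genes, of which *Atp5g2*, *Cox6a1*, *Cycs* and *Ndufaf4* were higher and *Uqcrc1* was lower. The cAMP response element was near 5, of which *Cycs* and *Ndufa10* were higher and *Uqcrfs1* lower, and the E-box near 7, of which *Atp5g3* was higher and *Ndufv1* lower. For the NRF1 core 30.8% of its 13 genes were higher and 7.69% lower. The shares were 40% and 20% of the 5 genes with the cAMP response element. For the E-box 14.3% of its 7 genes were called in each direction. Over all genes tested 24.8% were higher and 20.6% lower. The relation of motif and direction was not tested. A match is a description of letters, not a binding site.

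*Cycs* was the only member with both the NRF1 core and the cAMP response element that was called, and the promoter of *Cyct* held none of the 3 motifs. The 30 bases around each motif are shown for members that were called. Capitals mark the motif on either strand, and where copies on both strands overlap, all their bases.
Cycs, NRF1 core, chr6:50566611-50566640, minus strand, motif from 60 bases before the start: catgctagctcGCATGCGCgcgcacaaacc
Cycs, cAMP response element, chr6:50566720-50566749, minus strand, from 169 bases before the start: aggccagagggTGACGTCAcgcacgtccac
Cox6a1, NRF1 core, chr5:115349101-115349130, minus strand, from 162 bases before the start: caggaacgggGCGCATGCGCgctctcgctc
Atp5g2, NRF1 core, chr15:102671070-102671099, minus strand, from 42 bases before the start: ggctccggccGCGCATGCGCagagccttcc
Ndufaf4, NRF1 core, chr4:24897960-24897989, plus strand, from 113 bases before the start: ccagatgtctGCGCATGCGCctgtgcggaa
Ndufaf4, a further copy of the NRF1 core, chr4:24898073-24898102, plus strand, just after the start: gcccctggtgtGCGCATGCtccgtgcgtac
Ndufa10, cAMP response element, chr1:92473807-92473836, minus strand, from 67 bases before the start: acactcagtggTGACGTCAtggcagcgcgc
Atp5g3, E-box, chr2:73911547-73911576, minus strand, from 238 bases before the start: acccctgcctggCACGTGcaaggagcgagg
Uqcrfs1, cAMP response element, chr13:30545327-30545356, minus strand, from 29 bases before the start: cggcgtcgcgcTGACGTCAcaaaccctgcg
Uqcrc1, NRF1 core, chr9:108936668-108936697, plus strand, motif within the first bases after the start: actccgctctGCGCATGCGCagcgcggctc
Ndufv1, E-box, chr19:4012907-4012936, minus strand, from 169 bases before the start: agcagagggcgaCACGTGagcctggtttac
The first 8 sequences belong to members that were higher in MLX KO testes, and the last 3, of *Uqcrfs1*, *Uqcrc1* and *Ndufv1*, to members that were lower.

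Other genes of oxidative phosphorylation were taken from fixed lists. Among 10 subunits and carriers with other names, 6 were higher and 1 was lower (60% and 10%, against 24.8% and 20.6% of all genes tested). The single decrease was *Slc25a31*, the germ cell form of the ADP/ATP carrier, which had 69.8, 70.1 and 69.4 CPM in WT and 62.9, 60.9 and 60.9 CPM in MLX KO testes (LFC -0.18, SE 0.05, adjusted p = 0.00926, edgeR), and whose call was lost under library size scaling. Its somatic relatives rose: *Slc25a5* had 33.8, 37.9 and 39.4 CPM in WT and 57.4, 70.8 and 67.0 CPM in MLX KO testes (LFC 0.81, SE 0.08, adjusted p = 3.79e-05, edgeR), and *Slc25a4* had an LFC of 0.30 (adjusted p = 0.0103, edgeR). The electron transfer flavoprotein genes of fatty acid oxidation, *Etfa*, *Etfb* and *Etfdh*, were all higher (LFC 0.57, 0.28 and 0.68), as was *Cyc1*, the cytochrome c1 subunit of complex III (LFC 0.27).

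Of 34 assembly factors tested 6 were higher and 2 lower (17.6% and 5.88%, against 24.8% and 20.6% of all genes tested). Those higher were *Acad9*, *Timmdc1*, *Ttc19*, *Surf1*, *Cox14* and *Cox15*, with LFCs from 0.32 (*Acad9*) to 0.45 (*Cox15*, a heme A synthase). Those lower were *Lyrm7* (LFC -0.24) and *Uqcc2* (LFC -0.21), both factors of complex III. Of 15 genes of mitochondrial biogenesis 1 was higher (*Ppargc1b*, a coactivator, LFC 0.71) and 2 were lower, or 6.67% and 13.3%. *Tfam*, the packaging and transcription factor of mitochondrial DNA, fell from 191, 179 and 180 CPM to 149, 132 and 136 CPM (LFC -0.40, SE 0.06, adjusted p = 0.000269, edgeR), and *Polg*, the mitochondrial DNA polymerase, had an LFC of -0.18. The 13 subunits encoded in mitochondrial DNA were not analysed here. Over the 3 lists, 13 of 59 genes were higher and 5 were lower, or 22.0% and 8.47%. The share higher was thus near the 24.8% of all genes tested, and the share lower was below their 20.6%.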

How the data were processed

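The authors deposited 1 table of whole-number read counts per gene symbol for the 6 RNA-seq libraries (paired-end, TRIzol-extracted testes RNA). Reads were aligned to mm10, with TopHat and Bowtie2 named in the submitters' processing notes, and the counting tool and annotation are not given in the sources used here. Further columns of the deposited table give the authors' comparison of the genotypes: a mean signal, a log2 fold change, its standard error and a test score, and p-values. These were not used. ChIP-seq samples were not analysed here.

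Of 17933 rows 2 repeated another row and were used once. Counts were analysed with edgeR 4.0.16 in R 4.3.3 (low-count filter at its minimum of 10, TMM, quasi-likelihood test, genotype as the only term, Benjamini-Hochberg adjustment over all genes tested, threshold 0.05). Gene lengths and transcript sequences came from GENCODE. Promoters and coordinates came from RefSeq on GRCm38.p6, in which 91 members matched by current and 3 by older symbol. Pair ratios were tested with two-sided exact permutation tests. Libraries held 16674678 to 19742726 counts, and counts of at most 3 were treated as the floor.

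The members and lists were chosen with earlier results of these data known. Genes were named by a rule: the paralog pairs and tissue isoforms with their partners, the 5 largest increases and decreases called in the same direction in all 3 pairs, and the extremes of each complex. Other genes in the text stand for counts they belong to and were chosen after their values were seen.

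The sample titles call the replicates paired, and the study states littermate pairs. Deviations from the group means correlated at 0.145, 0.0363 and 0.121 for libraries of the same number, and at 0.0330 or less for libraries of different numbers. The pair was used as a block in alternative fits. DESeq2 1.42.0, other normalizations and filters, and each library left out were further alternatives. Leaving out pair 1 was chosen after seeing the data. The code was tested on simulated data.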

Additional observations from a re-analysis of the deposited data

How the results depend on the processing

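Calls depended on the setting, and so did many directions when libraries were scaled to their size alone. Over the main fit and 15 alternatives, 11 members stayed higher in each (*Atp5g2*, *Atp5g3*, *Cox6a1*, *Cox6b1*, *Cox7b*, *Cox8a*, *Cycs*, *Ndufa1*, *Ndufa10*, *Ndufa4* and *Ndufb11*) and only *Ndufaf3* stayed lower in each. With library size alone, which moved the median LFC of all genes by 0.139, 37 members were higher and 1 lower, 29 and 1 of the other respiratory chain genes, and 1268 genes in all were lower. There the median LFC of the members was 0.134, against -0.01 in the main fit. Among the genes named by rule, *Cox4i1*, *Cox6b2* and *Cyct* turned to LFCs of 0.0442, 0.00983 and 0.00155. All 3 were below the median of 0.164 of all genes in that fit. Members outside that rule turned as well, such as *Atp5b* (LFC -0.02 to 0.12) and *Uqcrc2* (LFC -0.05 to 0.09). With DESeq2 13 members and 7 other genes were higher. With DESeq2 and the littermate block, 11 members were higher and 10 lower, 4 and 3 of the other genes, and 2193 genes in all were higher. In edgeR the littermate block left 19 members higher and 12 lower. *Atp5a1*, *Sdha*, *Cyct*, *Ndufv1*, *Ndufv2*, *Uqcrc1* and *Uqcrfs1* lost their call, *Uqcr11* gained one, and no other member changed. For the pair ratios the block gave the same differences and a smallest possible exact p of 0.25.

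Leaving out 1 library at a time gave 13 to 20 members higher (13 without WT1 and 13 without KO2) and 5 to 25 lower (9 without WT1, 6 without WT2, 10 without WT3, 25 without KO1, 5 without KO2 and 5 without KO3). Among the other genes 8 to 14 were higher (8 without WT3) and 3 to 5 lower (3 without WT2, KO2 or KO3). Without pair 1, 17 members were higher and 24 lower. Shares over all genes were not set beside these counts, so the counts do not tell the members apart from other genes. The ratio differences ranged from -0.72 to -0.57 for *Cyct*, -0.79 to -0.63 for *Cox6b2*, -1.35 to -0.98 for *Cox7b2*, -1.05 to -0.81 for *Cox8c* and 0.98 to 1.50 for *Cox7a1*. Per kb of coding sequence the shares in WT and MLX KO testes were 56.1% and 45.3% for *Cyct*, 96.2% and 91.9% for *Cox7b2*, 93.9% and 89.0% for *Cox8c* and 0.446% and 1.11% for *Cox7a1*. The causes of these changes were not tested. *Cyct* lost its call in 10 alternatives besides the one that turned its sign, while *Cox6b2* passed the threshold in 4.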

Other observations

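Members were also divided by whether any 50-base stretch of their transcript occurs elsewhere in the genome, which could affect how reads were counted. Of 45 tested members with no such stretch, 10 were higher (22.2%) and 12 lower (26.7%). Of 46 with at least 1, 10 were higher (21.7%) and 5 lower (10.9%). Over all genes tested, 24.8% were higher and 20.6% lower. The part of repeated sequence in the calls was not tested.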
